A study of Mus musculus with 46 samples.

Results

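The genes described here are 3 cardiac myosin heavy chain genes, Myh6, Myh7 and Myh7b, and Esr1, taken by gene name from the 55359 genes of the count table. All 4 were found and all 4 passed the filter on low counts in both sets of libraries. They were measured in 46 mRNA libraries of adult mouse hearts, 26 made with the NEBNext directional kit, which reads along whole transcripts, and 20 with QuantSeq, which counts 3' tags. Every mouse carried Myh6MCM (Tg/0; spelled My6MCM in some labels), a transgene in which the Myh6 promoter drives MerCreMer, and every mouse received tamoxifen at 6 to 8 weeks of age (100 µL of a 4 mg/mL solution a day for 4 days), controls included. The NEBNext hearts were Lmna F/F or Lmna +/+, taken 1 week (4 F/F, 5 +/+), 11 days (2 F/F, 3 +/+) or 2 weeks (5 F/F, 7 +/+) after tamoxifen. The QuantSeq hearts were taken at 2 weeks: 4 Lmna F/F and 4 Lmna F/+ hearts of cGas null/null mice, and 6 Lmna F/F and 6 Lmna F/+ hearts of cGas +/+ mice. The controls of the QuantSeq set thus carry a floxed Lmna allele and those of the NEBNext set do not, and no mouse without the transgene or without tamoxifen is among the groups. The recombinase is made in cardiomyocytes, so Lmna in the other cells of the heart is not its target.

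Myosin heavy chains are the motor proteins of the thick filament. In the adult mouse ventricle Myh6 encodes the main, fast isoform (alpha), and Myh7 encodes the slower beta isoform, which is the main one before birth and often returns when the heart is under load. Myh7b is a slow myosin gene expressed at a low level in heart, whose transcript also carries a microRNA in an intron. Esr1 encodes estrogen receptor alpha. MerCreMer joins the Cre recombinase to mutated hormone-binding domains of that receptor, so that reads of the transgene that align to the receptor's sequence are counted with Esr1, and the Esr1 values below hold transgene and endogenous reads that cannot be told apart.

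The promoters are shown because the transgene and Myh6 share one by design, while Myh7, the neighbour of Myh6 on chromosome 14, and Myh7b, on chromosome 2, have their own. They run from 250 bases before to 50 bases after the RefSeq start (GRCm38.p6; the counts were made on mm39), on the strand of the gene: chr14:54966558-54966857 (minus) for Myh6, chr14:54994577-54994876 (minus) for the first of the RefSeq entries of Myh7, and chr2:155610993-155611292 (plus) for Myh7b. Capitals mark matches to the TATA box TATAAA, the M-CAT element CATTCC, the MEF2 core TAAAAATA and the nuclear receptor element AGGTCA, searched on both strands, as was the GATA element GATAAG.
Myh6: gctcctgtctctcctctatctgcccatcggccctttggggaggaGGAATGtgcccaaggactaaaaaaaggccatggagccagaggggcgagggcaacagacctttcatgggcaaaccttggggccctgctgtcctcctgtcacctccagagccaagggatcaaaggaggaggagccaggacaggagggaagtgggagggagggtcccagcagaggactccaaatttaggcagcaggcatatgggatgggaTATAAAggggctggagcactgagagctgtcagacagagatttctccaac
Myh7: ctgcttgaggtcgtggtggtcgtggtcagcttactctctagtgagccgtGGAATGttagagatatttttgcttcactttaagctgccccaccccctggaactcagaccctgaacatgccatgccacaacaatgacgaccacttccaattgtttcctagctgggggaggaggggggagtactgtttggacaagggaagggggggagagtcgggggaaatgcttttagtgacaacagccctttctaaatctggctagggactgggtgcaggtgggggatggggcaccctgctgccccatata
Myh7b: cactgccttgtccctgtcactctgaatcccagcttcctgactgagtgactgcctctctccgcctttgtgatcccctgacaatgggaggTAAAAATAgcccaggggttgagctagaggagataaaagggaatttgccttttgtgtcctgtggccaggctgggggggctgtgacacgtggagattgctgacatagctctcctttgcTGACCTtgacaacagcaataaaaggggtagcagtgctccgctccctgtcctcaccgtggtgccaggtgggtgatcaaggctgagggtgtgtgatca
The Myh6 window held TATAAA beginning 2 bases past the annotated start and CATTCC on the opposite strand at -206. The Myh7 window held CATTCC on the opposite strand at -201. The Myh7b window held TAAAAATA at -162 and AGGTCA on the opposite strand at -46, and GATAAG was in none of these 3 windows. Of all 32851 RefSeq promoters of the same length, 13.6% held TATAAA, 14.7% CATTCC, 2.72% TAAAAATA, 16.3% AGGTCA and 7.44% GATAAG, and none of the matched elements overlapped another. A match describes letters and not a bound site.

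Total counts were 8477358 to 25856892 per NEBNext library and 22099181 to 33993289 per QuantSeq library, and mitochondrially encoded genes took 4.04 to 31.7% and 45.9 to 58.9% of them. Lmna, the gene targeted, averaged 33.3 ± 4.38 normalised CPM (CPM on library sizes scaled by TMM factors) in F/F hearts of 1 week against 59.0 ± 9.22 in +/+ hearts, and 85.2 ± 26.9 in F/F hearts against 113 ± 7.02 in +/+ hearts at 2 weeks. At 11 days it averaged 58.4 ± 0.0513 in the 2 hearts labelled F/F and 92.2 ± 35.2 in the +/+ hearts, a gap within the SD of the 3 +/+ libraries. Lmna was called at none of these times, with edgeR adjusted p of 0.315 at 1 week, 0.558 at 11 days and 0.0983 at 2 weeks. The unadjusted edgeR p were 0.00105, 0.0339 and 0.0362. In QuantSeq Lmna did not separate F/F (20.5 ± 4.44) from F/+ (22.0 ± 3.01). Whether the 3' tags fall in the deleted part is not given, so these values do not check the deletion. Cgas averaged 0.876 ± 0.258 normalised CPM in cGas null and 2.88 ± 0.765 in cGas +/+ hearts among F/F hearts, and 0.565 ± 0.243 in cGas null and 1.45 ± 0.666 in cGas +/+ hearts among F/+ hearts. The 8 markers of heart muscle had reads in every group, while atrial genes varied from library to library. Sln, an atrial calcium pump regulator, exceeded 10 CPM in 8 of 26 NEBNext and 11 of 20 QuantSeq libraries.

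Myh6 was among the most abundant transcripts of every heart. By deposited TPM, which divides by gene length, it lay between 779 and 5172 in the NEBNext libraries (median 2250), at ranks 26 to 167 of all genes. Myh7 lay between 19.7 and 261 TPM (median 80.9) and Myh7b between 0.777 and 17.6 TPM (median 4.16), so the order Myh6, Myh7, Myh7b held for the 3 myosins and their ranges over the 26 libraries did not meet. Esr1 lay between 54.0 and 1704 TPM (median 659), at ranks 66 to 2030, overlapping the ranges of Myh6 and Myh7. In QuantSeq, where tags need no length, Myh6 had 957 to 3056 CPM, Myh7 61.9 to 160, Esr1 19.6 to 94.2 and Myh7b 0.544 to 2.42. The median of Esr1 lay above that of Myh7 in NEBNext (659 against 80.9 TPM) and below it in QuantSeq (62.3 against 116 CPM), while the order of the 3 myosins was the same with both kits. The length that the authors used for Esr1 and the 3' end of the transgene were not stated by any source at hand, so Esr1 is set against Myh6 only between groups of 1 kit.

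At 2 weeks, F/F hearts had lower Myh6, Myh7b and Esr1 than +/+ hearts, and Myh7 did not pass the test. These were 3 of the 4 genes called lower, where 13.0% of the 15627 genes tested were called lower, 16.2% higher and 29.2% in either direction (edgeR quasi-likelihood test, Benjamini-Hochberg adjusted p under 0.05). In heart tissue fewer cardiomyocytes and less of a transcript per cardiomyocyte cannot be told apart. Overlap of the groups is described below gene by gene, and the share of all genes without overlap was not computed.

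Myh6 had 10723, 7196, 4290, 7551 and 7318 normalised CPM in the F/F hearts, against a lowest value of 10146, a median of 13597 and a highest of 17998 in the 7 +/+ hearts. Of the F/F hearts 4 of 5 lay below every +/+ heart and replicate 1 lay inside their range, whereas by deposited TPM 3 of 5 lay below. Its level averaged 7415 ± 2279 in F/F and 13355 ± 2681 in +/+ hearts (SD, n = 5 and 7), and the log2 ratio of F/F to +/+ was -0.86 ± 0.18 (edgeR adjusted p = 0.000983).

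Esr1 had 854, 820, 134, 951 and 1009 normalised CPM in the F/F hearts, against 1221 at the lowest, 1978 at the median and 4780 at the highest in +/+ hearts. The groups did not overlap on this scale, whereas by deposited TPM 3 of 5 F/F hearts lay below every +/+ heart. The log2 fold change was -1.75 ± 0.36 (edgeR adjusted p = 0.000909), the largest drop of the 4 genes, with means of 753 ± 354 in F/F and 2373 ± 1203 in +/+ hearts.

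Myh7b had 19.7, 13.3, 3.14, 15.2 and 16.8 normalised CPM in the F/F hearts, against 22.6 at the lowest, 28.7 at the median and 59.6 at the highest in +/+ hearts. No F/F heart reached the lowest +/+ heart, by normalised CPM or by TPM. The log2 fold change was -1.37 ± 0.31 (edgeR adjusted p = 0.00157).

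Myh7 had 703, 277, 397, 239 and 228 normalised CPM in the F/F hearts, against 81.5 at the lowest, 136 at the median and 927 at the highest in +/+ hearts. The F/F values lay wholly inside the +/+ range, which was set by 2 hearts at 811 and 927 and 5 hearts at 81.5 to 145. The log2 fold change was 0.46 ± 0.50 (edgeR adjusted p = 0.533), and its error was the largest of the 4 genes.

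**Figure D1:**
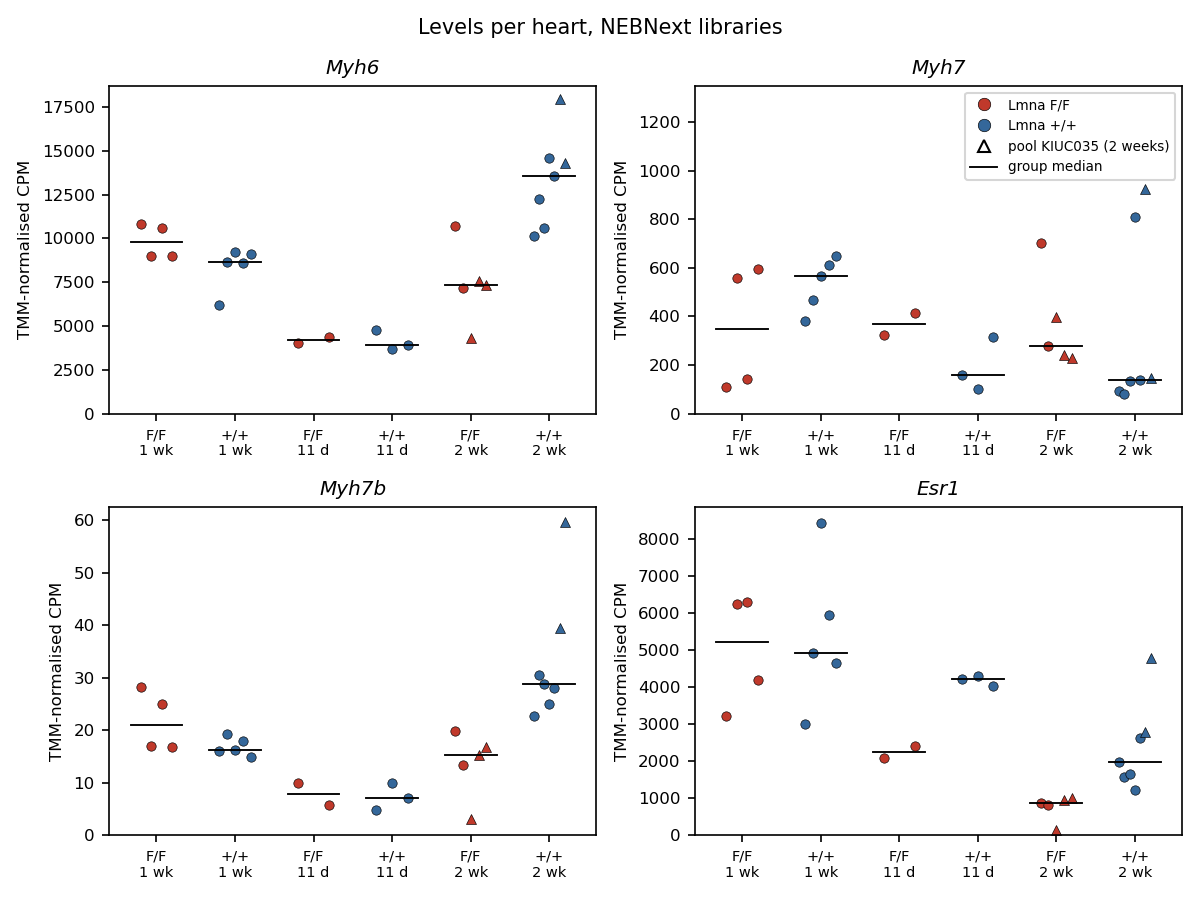
Normalised CPM of the 4 genes in each NEBNext heart, Lmna F/F left of Lmna +/+ at each time; black lines are group medians and triangles mark pool KIUC035 of the 2-week hearts. At 2 weeks the F/F hearts lie at or below 10723 for Myh6 and at or below 1009 for Esr1, while the Myh7 values of the +/+ hearts split into 5 hearts at 81.5 to 145 and 2 at 811 and 927.

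The 2-week hearts were sequenced in 2 pools, and the difference between the pools was not tested. In pool KIUC035 (3 F/F, 2 +/+) the log2 fold changes were -1.41 for Myh6, -2.21 for Myh7b and -2.503 for Esr1, with edgeR adjusted p of 0.000448, 0.00120 and 0.00263. In pool KIUC033 (2 F/F, 5 +/+) they were -0.45, -0.69 and -1.09, with edgeR adjusted p of 0.241, 0.157 and 0.0744. The direction was the same in both pools for these 3 genes, and the call was lost in KIUC033. For Myh7 the log2 fold change was -0.56 in KIUC035 and 1.12 in KIUC033, neither called (edgeR adjusted p = 0.551 and 0.359). Without the TMM factors the median of all genes at 2 weeks moved to 0.29 on the log2 scale, against 0.04 with them, and the share of called genes that were higher to 84.2%, against 55.6%. On that scale Myh6 was at -0.63, Myh7b at -1.16 and Esr1 at -1.53, still called.

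At 1 week none of the 4 genes was called by edgeR (nor at an unadjusted p under 0.05, nor by DESeq2), where 0.0256% of all genes were, 0.00640% higher and 0.0192% lower. Of the 15627 genes tested, 1539 had an unadjusted p under 0.05 by edgeR. Myh6 had 10843, 9007, 10585 and 9017 normalised CPM in F/F hearts, against 6196, 8684, 9216, 8593 and 9111 in +/+ hearts, a log2 difference of 0.24 ± 0.20 (edgeR adjusted p = 0.685). Esr1 had 3210, 6263, 6312 and 4186 in F/F hearts, against 3016, 4934, 8445, 5952 and 4666 in +/+ hearts (-0.09 ± 0.39, edgeR adjusted p = 0.957). Both arms spanned much the same range for Esr1. Myh7b averaged 21.8 ± 5.76 in F/F and 16.8 ± 1.70 in +/+ hearts (0.38 ± 0.34, edgeR adjusted p = 0.709). Myh7 had 110, 559, 141 and 595 in F/F hearts, against 382, 468, 565, 613 and 651 in +/+ hearts (-0.90 ± 0.59, edgeR adjusted p = 0.618). Of the F/F hearts 2 lay far below every +/+ heart and 2 lay inside their range, whereas by deposited TPM 1 of the latter lay above it.

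At 11 days none of the 4 was called by edgeR either (nor at an unadjusted p under 0.05, nor by DESeq2), where 0.00% of all genes were called. Of the 15627 genes tested, 1302 had an unadjusted p under 0.05 by edgeR. The atrial markers varied among these hearts. Their summed levels were 518 to 553 normalised CPM in the hearts labelled F/F and 801 to 3124 in the +/+ hearts. Nppa alone had 459 to 468 and 758 to 1838 in them, and Bmp10 was at 0 in both. Without Nppa, the mean log2 level of these markers was 1.90 and 2.13 in hearts labelled F/F, against 1.88, 5.12 and 5.52 in +/+ hearts. The part of the atrial markers in the values was not tested. Esr1 had 2087 and 2404 normalised CPM in the 2 hearts labelled F/F, against 4234, 4292 and 4040 in the +/+ hearts, a log2 difference of -0.94 ± 0.54 (edgeR adjusted p = 0.662). The arms did not overlap for Esr1, nor for Myh7, which had 325 and 416 in the hearts labelled F/F, against 159, 100.0 and 316 in the +/+ hearts (1.24 ± 0.77, edgeR adjusted p = 0.685). The nearest Myh7 values of the 2 arms were 325 and 316. The share of all genes whose arms do not overlap was not computed, so no result is drawn from the overlap. Myh6 averaged 4195 ± 219 in hearts labelled F/F and 4119 ± 556 in +/+ hearts, a log2 fold change of 0.02 ± 0.27. Myh7b averaged 7.85 ± 3.0 in hearts labelled F/F and 7.23 ± 2.60 in +/+ hearts, a log2 fold change of 0.11 ± 0.48.

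The Lmna F/F effect at 2 weeks differed from that at 1 week for the same 3 genes, tested as the difference between the log2 fold changes, where 5.88% of all genes were called lower, 6.52% higher and 12.4% in either direction. The difference was -1.10 ± 0.27 for Myh6 (edgeR adjusted p = 0.00995), -1.76 ± 0.45 for Myh7b (edgeR adjusted p = 0.0143) and -1.66 ± 0.53 for Esr1 (edgeR adjusted p = 0.0398). For Myh7 it was 1.35 ± 0.79 (edgeR adjusted p = 0.264). Both comparisons use the same estimate of the spread and each time has its own pools, so the time and the pool cannot be told apart. The Esr1 call was lost in 12 of 21 fits that left out 1 library, in which the difference ran from -1.95 to -1.34.

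**Figure D2:**
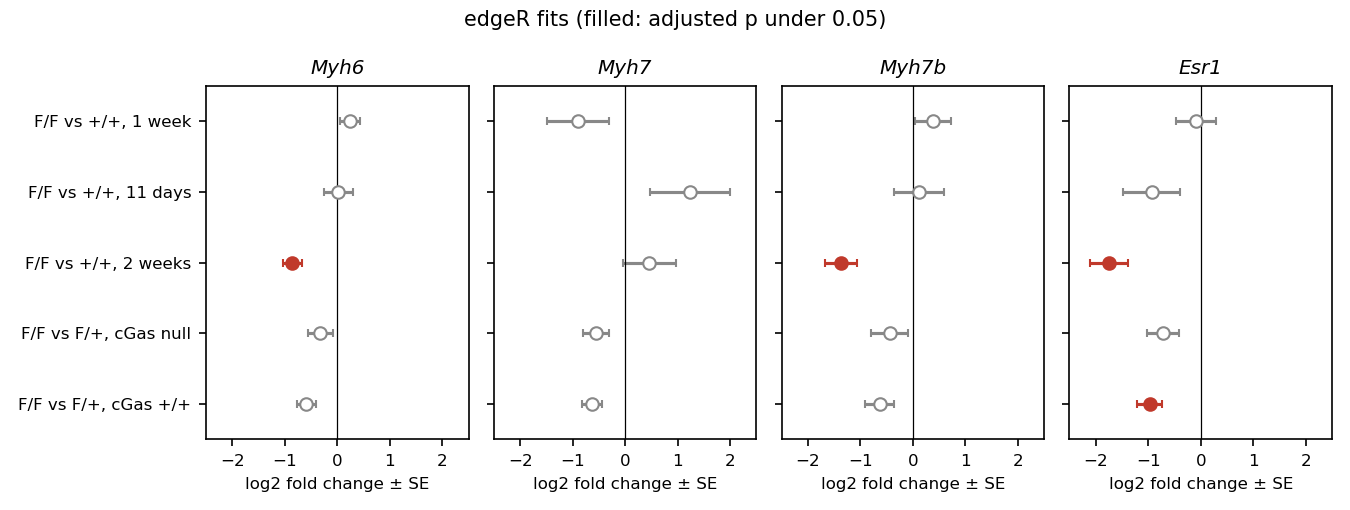
Log2 fold changes with standard errors of the 4 genes in the 5 Lmna comparisons, F/F over its control, from the edgeR fits; filled red points passed an adjusted p of 0.05. Myh6, Myh7b and Esr1 are filled at 2 weeks of the NEBNext set, and Esr1 alone is filled in the QuantSeq hearts with cGas.

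In the QuantSeq hearts with cGas, Esr1 was lower in F/F than in F/+ hearts and the myosins missed the threshold. The Esr1 call was lost in 4 of 12 fits that left out 1 library (F/F replicate 1 or 2, F/+ replicate 1 or 3), and its log2 fold change ran from -1.14 to -0.84 over all 12. This was 1 of the 4 genes called lower, where 0.891% of the 14812 genes tested were called lower, 3.74% higher and 4.63% in either direction. Esr1 had 22.5, 35.1, 48.3, 54.8, 17.3 and 57.6 normalised CPM in the F/F hearts, against 76.2, 79.7, 68.2, 70.2, 90.6 and 80.3 in the F/+ hearts. All 6 F/F hearts lay below every F/+ heart, or 5 of 6 by deposited CPM, and the share of all genes without overlap was not computed. The log2 fold change was -0.98 ± 0.24 (edgeR adjusted p = 0.0238), and it was -0.82 (edgeR adjusted p = 0.0962) without the TMM factors, under which the median of all genes stood at 0.15, against -0.01 with them, and 96.7% of called genes were higher, against 80.8%.

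Myh6 had a lowest value of 941, a median of 1283 and a highest of 1927 normalised CPM in these F/F hearts, against 1540, 2103 and 2345 in F/+ hearts. Of the F/F hearts 4 of 6 lay below every F/+ heart, or 3 of 6 by deposited CPM. The log2 fold change was -0.59 ± 0.18 (edgeR adjusted p = 0.0685). Myh7 had 57.3 at the lowest, 93.5 at the median and 102 at the highest in F/F hearts, against 97.6, 132 and 163 in F/+ hearts (-0.64 ± 0.19, edgeR adjusted p = 0.0541). With DESeq2 Myh6 and Myh7 both passed, at adjusted p of 0.0152 and 0.0185. Myh7b, with 13 to 61 tags per library over the 20 libraries, averaged 1.08 ± 0.489 in F/F and 1.69 ± 0.479 in F/+ hearts (-0.64 ± 0.28, edgeR adjusted p = 0.218).

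In the cGas null hearts none of the 4 was called by edgeR or DESeq2, where edgeR called 0.527% of all genes (0.0270% lower). Of the 4 genes 2, Esr1 and Myh7, had an unadjusted p under 0.05 by edgeR, as did 1528 of the 14812 genes tested. Esr1 had 62.9, 36.0, 31.1 and 58.0 normalised CPM in F/F hearts, against 60.2, 97.7, 73.9 and 73.1 in F/+ hearts (-0.72 ± 0.31, edgeR adjusted p = 0.391). Of the F/F hearts 3 of 4 lay below every F/+ heart, or 2 of 4 by deposited CPM. Myh6 had 1665, 1894, 1771 and 2110 in F/F hearts, against 1817, 3171, 2262 and 2359 in F/+ hearts (-0.33 ± 0.24, edgeR adjusted p = 0.725). Myh7 had 95.2, 125, 67.6 and 104 in F/F hearts, against 189, 163, 114 and 109 in F/+ hearts (-0.56 ± 0.24, edgeR adjusted p = 0.414), and the log2 fold change of Myh7b was -0.44 ± 0.35 (edgeR adjusted p = 0.757). All 4 F/+ hearts here were male, against 2 of 4 F/F hearts.

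The difference between the F/F effect without and with cGas was 0.26 ± 0.30 for Myh6, 0.08 ± 0.31 for Myh7, 0.19 ± 0.45 for Myh7b and 0.26 ± 0.39 for Esr1. None was called by edgeR or DESeq2, nor at an unadjusted p under 0.05. By edgeR 0.00% of all genes were called, and 215 of the 14812 tested had an unadjusted p under 0.05. The test does not show that the effects were alike. Set against cGas +/+ hearts, cGas null hearts had log2 fold changes between 0.18 and 0.57 among F/F hearts and between 0.02 and 0.38 among F/+ hearts for the 4 genes. None was called by edgeR (0.00% of all genes in either), with an unadjusted p under 0.05 for Myh6 among F/F hearts alone. Of the 14812 genes tested, 850 had such a p by edgeR among F/F hearts and 616 among F/+ hearts. The highest log2 fold change was that of Myh7b among F/F hearts, with 1.53 ± 0.357 in cGas null and 1.08 ± 0.489 in cGas +/+ hearts (edgeR adjusted p = 0.878).

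**Figure D3:**
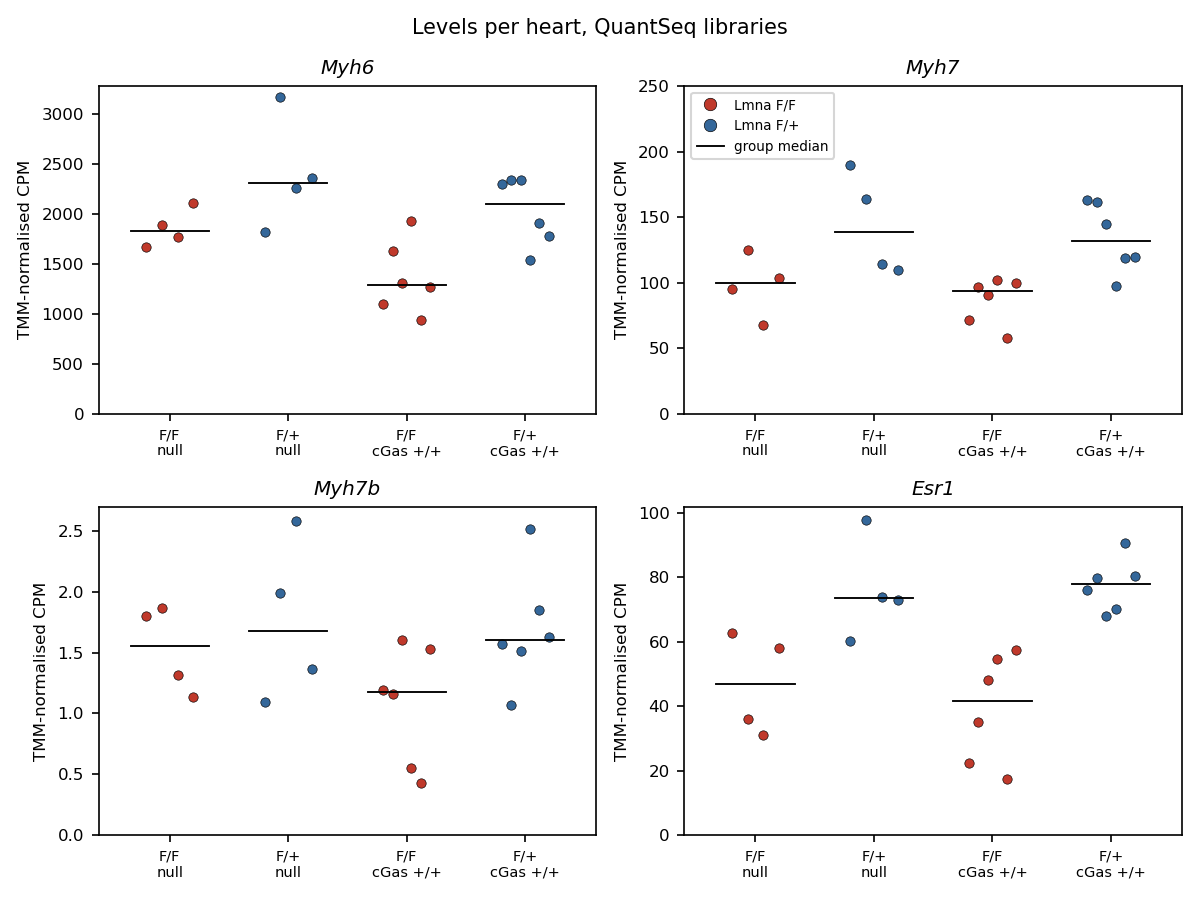
Normalised CPM of the 4 genes in each QuantSeq heart, cGas null left of cGas +/+ and Lmna F/F left of Lmna F/+; black lines are group medians. All 6 F/F hearts with cGas lie at or below 57.6 for Esr1 and all 6 F/+ hearts at or above 68.2.

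The ratio of Esr1 to Myh6 sets the reads of the transgene and of endogenous Esr1 against the gene whose promoter drives the transgene. By TPM it was 28.5, 67.1, 57.5 and 44.8% in F/F hearts of 1 week, against 46.9, 54.8, 88.4, 66.8 and 49.4% in +/+ hearts. It was 49.8 and 53.3% in hearts labelled F/F at 11 days, against 85.9, 112 and 99.8% in +/+ hearts, and the arms did not overlap. At 2 weeks it was 7.68, 11.0, 3.01, 12.1 and 13.3% in F/F hearts, against 8.07% at the lowest, 14.9% at the median and 32.2% at the highest in +/+ hearts. The NEBNext hearts of 2 weeks thus spanned 3.01 to 32.2% and those of the earlier times 28.5 to 112%, and times differ in their pools, from which they cannot be told apart.

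Within a time the log2 ratio of Esr1 to Myh6 differed between F/F and +/+ hearts by -0.34 at 1 week, -0.94 at 11 days and -0.92 at 2 weeks. Exact two-sided permutation tests gave p = 0.333, 0.1 and 0.0404, where 0.1 is the smallest that 2 against 3 hearts can give. Within the pools of 2 weeks it differed by -0.60 in KIUC033 (exact permutation p = 0.238) and by -1.48 in KIUC035 (exact permutation p = 0.3), a pool whose 5 hearts allow no exact p under 0.1. In QuantSeq the differences were -0.51 with cGas (exact permutation p = 0.0779) and -0.39 without it (exact permutation p = 0.286). The ratio of tags was 1.84 to 4.56% in F/F and 2.91 to 4.75% in F/+ hearts with cGas. Adjusted over the 21 ratio tests none passed, and the lowest adjusted p was 0.300, so Esr1 was not shown to move apart from Myh6. All 5 differences had the same direction, and the arms did not overlap at 11 days, nor within pool KIUC035 of 2 weeks, where all 3 F/F hearts lay below both +/+ hearts. How often other ratios do so was not computed, so no result is drawn from the direction or the overlap.

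The ratio of Myh7 to Myh6 fell into separate levels in the NEBNext hearts, and these did not follow the genotype labels. By TPM it was 0.652 to 1.30% in 7 hearts and 2.65 to 9.37% in the other 19, with a gap of 1.02 between them on the log2 scale, where the next widest gap was 0.46. The 7 were 2 of the 4 F/F hearts of 1 week and 5 of the 7 +/+ hearts of 2 weeks. In the F/F hearts it was 0.998, 6.09, 1.30 and 6.48% at 1 week, against 6.05, 5.29, 6.02, 7.0 and 7.01% in +/+ hearts. At 2 weeks it was 6.43, 3.78, 9.09, 3.11 and 3.05% in F/F hearts, against 0.652% at the lowest, 0.991% at the median and 5.46% at the highest in +/+ hearts. At 11 days it was 7.90 and 9.37% in hearts labelled F/F, against 3.29, 2.65 and 7.94% in +/+ hearts.

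The log2 ratio of Myh7 to Myh6 was higher by 1.60 in F/F hearts at 2 weeks (exact permutation p = 0.0366, adjusted p = 0.300 over the 21 ratio tests), and by 1.91 in pool KIUC033 (exact permutation p = 0.0952) and 0.98 in KIUC035 (exact permutation p = 0.6). It differed by 1.07 at 11 days (exact permutation p = 0.3) and by -1.22 at 1 week (exact permutation p = 0.0952). In QuantSeq the ratio of tags lay between 3.81 and 10.4% in all 20 hearts, with no gap above 0.40. There the difference was -0.04 with cGas (exact permutation p = 0.667) and -0.21 without it (exact permutation p = 0.629). Myh6 and Myh7 transcripts share 22.6% and 22.2% of their 50-base stretches exactly, and 11.4% and 11.2% of their 100-base stretches (GENCODE vM21), so reads of the more abundant Myh6 can have been split with Myh7 or dropped when the authors counted. Myh7b and Esr1 share none with another gene.

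The ratio of Myh7b to Myh6 was 0.183, 0.183, 0.0726, 0.200 and 0.228% in F/F hearts of 2 weeks, against 0.170% at the lowest, 0.221% at the median and 0.413% at the highest in +/+ hearts. The log2 difference was -0.57 (exact permutation p = 0.0606), or -0.27 in pool KIUC033 and -1.01 in KIUC035 (exact permutation p = 0.238 and 0.5), and replicate 3 of the F/F hearts alone lay below the +/+ range. In the other 6 comparisons the difference lay between -0.20 and 0.19, with no exact permutation p below 0.590.

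**Figure D4:**
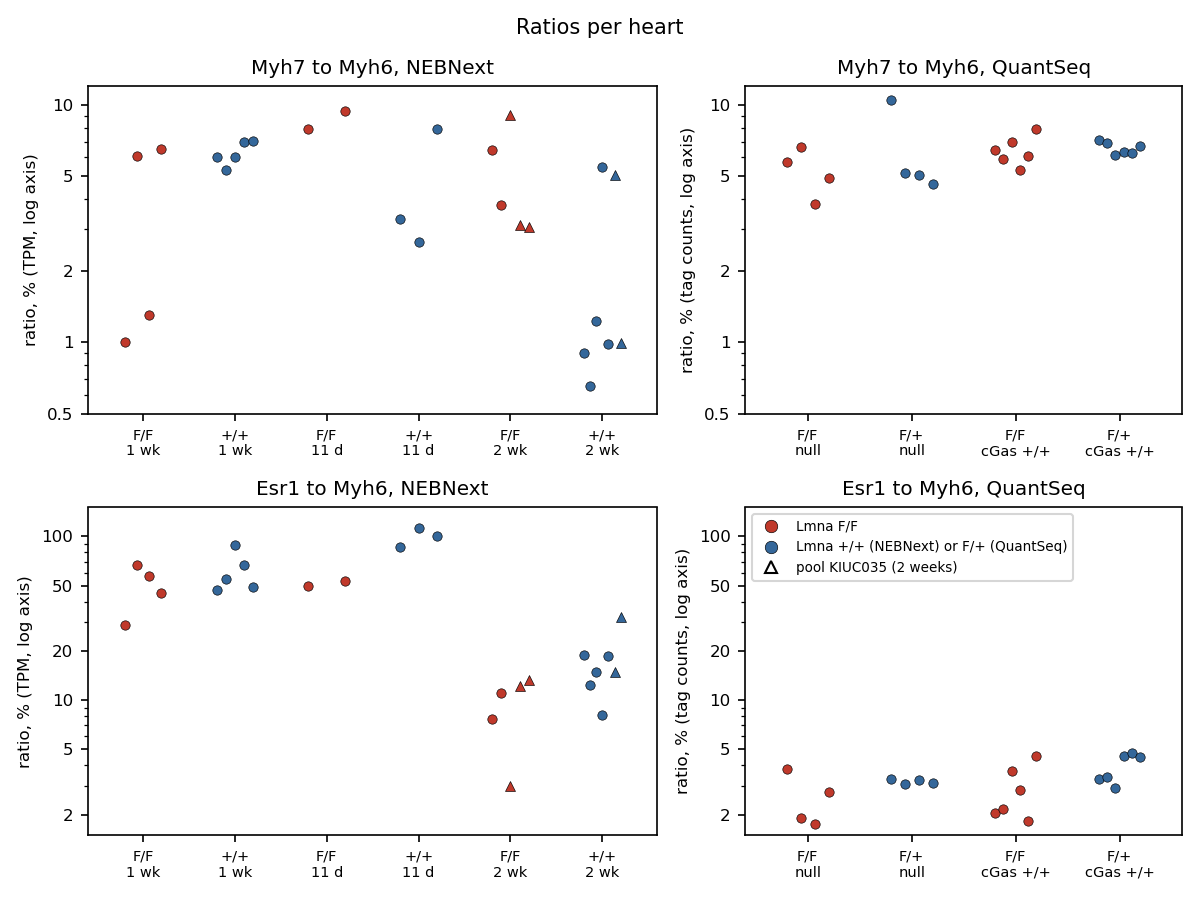
Ratios of Myh7 to Myh6 and of Esr1 to Myh6 in percent per heart on log axes, from TPM in NEBNext and from tag counts in QuantSeq; triangles mark pool KIUC035 of the 2-week hearts. The 7 lowest NEBNext hearts lie at 0.652 to 1.30% for Myh7 to Myh6, and the NEBNext hearts of 2 weeks lie at 3.01 to 32.2% for Esr1 to Myh6. The QuantSeq hearts lie at 1.76 to 4.75% for Esr1 to Myh6 by tags, a scale that cannot be compared with that of TPM.

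The genes most like each member were named by Pearson correlation of log2 normalised CPM, centred on the pool, over the 26 NEBNext libraries, among 12600 genes with a mean of at least 1 CPM. These correlations are descriptions, and the points share their libraries and depth. Differences between the groups were left in and add to them. Myh6 was most like Crhr2 (0.94), a receptor of the urocortins, Mtfp1 (0.93), a protein of mitochondrial fission, Slc2a4 (0.93), the insulin-dependent glucose transporter, Rpl3l (0.93), a ribosomal protein of striated muscle, and Perm1 (0.92), a muscle regulator of mitochondrial genes. Over the 20 QuantSeq libraries the same 5 genes had correlations with Myh6 of 0.77 to 0.94. Esr1 was most like Crhr2 (0.89), Ecsit (0.89), Asb18 (0.88), Coq9 (0.88), an enzyme of coenzyme Q synthesis, and Acy3 (0.88), with 0.60 to 0.83 in QuantSeq. Myh7b was most like Perm1 (0.88), Asb10 (0.87), Rnf207 (0.87), Tmem204 (0.86) and Dele1 (0.85), with 0.37 to 0.54 in QuantSeq. Among the members, Myh6 had correlations of 0.82 with Myh7b and 0.78 with Esr1 in NEBNext, and of 0.75 with both Esr1 and Myh7 in QuantSeq. Centred on group as well, those with Myh7b and Esr1 in NEBNext were 0.50 and 0.54. In QuantSeq those with Esr1 and Myh7 were then 0.55 and 0.56, and none passed the adjustment described below.

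Myh7 was most like a different kind of gene in NEBNext: Gm5503 (0.91) and Gm3375 (0.89), which are predicted genes, Rpl15 (0.71), a ribosomal protein, Rab2b (0.70), a small GTPase, and Rnase1 (0.67), a secreted ribonuclease. Over the 20 QuantSeq libraries the correlations with Myh7 were 0.61 for Gm3375 (mean 0.255 CPM), -0.47 for Rpl15, 0.13 for Rab2b and 0.47 for Rnase1. Gm5503 had a mean of 0.0 CPM there and no correlation. Rpl15, Rab2b and Rnase1 lie on chromosome 14, as Myh7 does, Gm3375 on chromosome 7 and Gm5503 on chromosome 18 (GENCODE vM21). Of the 20 genes with the highest and the 20 with the lowest correlation with Myh7, 5 and 7 lay on chromosome 14, which holds 3.46% of the genes considered. For Myh6, on the same chromosome, these counts were 0 and 0, and for Myh7 in QuantSeq 2 and 1. Esr1 in QuantSeq had 0 and 5 genes of its own chromosome 10, which holds 4.97% of the genes considered there, so such counts were not seen for Myh7 alone. The extension to 20 genes was chosen after the values were seen and carries no test.

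Gm3375 fell into separate levels too, with no NEBNext heart between 1.06 and 10.5 normalised CPM. The 12 hearts at or below 1.06 had ratios of Myh7 to Myh6 of 0.652 to 3.78%, and the 14 hearts at or above 10.5 had ratios of 5.05 to 9.37%, which did not overlap. This split is not the gap of the ratio itself. The low hearts among the +/+ hearts of 11 days and the F/F hearts of 2 weeks, at 2.65 to 3.78%, lay above that gap. Hearts of each genotype stood on either side. At 2 weeks, among the 8 hearts with Gm3375 at or below 1.06, the ratio was 3.05, 3.11 and 3.78% in 3 F/F hearts, against 0.652 to 1.23% in 5 +/+ hearts. Among the 4 with Gm3375 at or above 10.5 it was 6.43 and 9.09% in 2 F/F hearts, against 5.05 and 5.46% in 2 +/+ hearts. In this ratio the F/F hearts of 2 weeks lay above the +/+ hearts on either side of this gene. These are sets of 2 to 5 hearts that mix the 2 pools. Myh7 itself was higher in F/F hearts only on the low side, at 228 to 277 normalised CPM against 81.5 to 145. On the high side Myh7 was lower in F/F hearts (703 and 397, against 811 and 927), as was Myh6 (10723 and 4290, against 14582 and 17998). At 1 week the ratio was 0.998 and 1.30% in the 2 F/F hearts with low Gm3375, with no +/+ heart beside them. In the others of 1 week it was 6.09 and 6.48% in F/F hearts, against 5.29 to 7.01% in +/+ hearts. Gm3375 was picked for its likeness to Myh7, after its values and those of Myh7 were seen. A parting of the ratios by it was thus partly built in, and these are descriptions with no test. What the 2 levels stand for was not tested. All 3 F/F hearts of 2 weeks with low Gm3375 were female and both with high Gm3375 were male, and in all 7 of the 12 low and 3 of the 14 high hearts were female. In QuantSeq Gm3375 lay between 0.0413 and 0.732 in all 20 hearts.

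**Figure D5:**
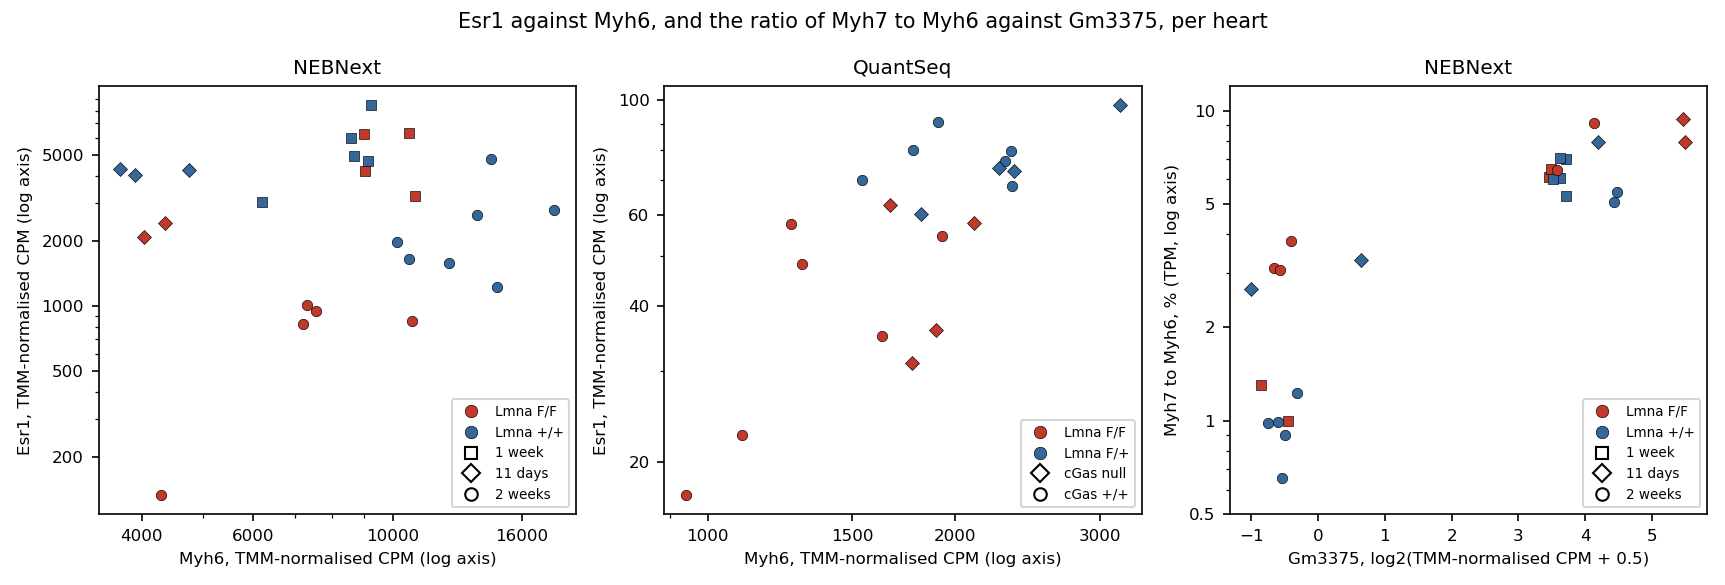
Esr1 against Myh6 per heart in NEBNext and in QuantSeq (normalised CPM, log axes), and the ratio of Myh7 to Myh6 in percent (log axis) against log2 Gm3375 in NEBNext. The hearts with Gm3375 at or below 1.06 lie at 0.652 to 3.78% and those at or above 10.5 at 5.05 to 9.37%. Among the hearts of 2 weeks the ratio in F/F hearts lies above that in +/+ hearts on either side, in small sets. Myh7 itself is higher in these F/F hearts only on the low side. Gm3375 was picked for its likeness to Myh7, so this is a description with no test.

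Relations between the members were tested over libraries after centring on group and pool, as 12 relations (6 pairs in each kit) with 100000 permutations within group and pool, and none passed the adjustment. The hearts form clusters in Myh7 in NEBNext, so no pooled r is given for the 3 pairs with Myh7 there, and relations within the clusters were not computed. These 3 pairs are among the 12, and 1 of them, Myh7 and Myh7b, had the smallest permutation p of all (0.0181 for r and 0.0194 for rho, adjusted p = 0.120 and 0.190). Its sign was negative, but the clusters enter it, so no direction is read from it. In the 7 +/+ hearts of 2 weeks this pair had r = 0.09 and rho = 0.29 (exact permutation p = 0.864 and 0.556). Myh6 and Esr1 had r = 0.54 and rho = 0.30 over 26 NEBNext libraries (permutation p = 0.105 and 0.234, adjusted p = 0.252 and 0.408), and r = 0.55 without the 2 libraries farthest out in Myh6. Over 20 QuantSeq libraries they had r = 0.55 and rho = 0.36 (permutation p = 0.0364 and 0.161, adjusted p = 0.142 and 0.408), and r = 0.30 without the 2 farthest. Myh6 and Myh7 had r = 0.56 and rho = 0.51 in QuantSeq (permutation p = 0.0200 and 0.0317, adjusted p = 0.120 and 0.190), and r = 0.40 without the 2 farthest. Myh7b and Esr1 had r = 0.66 in NEBNext (permutation p = 0.154, adjusted p = 0.264), which rested on 2 libraries, since r was -0.09 without them. Within the 3 groups of 6 or 7 hearts, 18 exact permutation tests gave no adjusted p below 0.0907.

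Other proteins of the thick filament were called lower at 2 weeks in 9 of 14 cases and higher in none, with a median log2 fold change of -0.70, against 13.0% of all genes called lower and a median of 0.04. Myl2, the ventricular regulatory light chain, was at 10258 ± 3262 normalised CPM in F/F and 20237 ± 2345 in +/+ hearts (-0.91 ± 0.15), and Mybpc3, myosin-binding protein C, at 1524 ± 300.3 in F/F and 2954 ± 289.7 in +/+ hearts (-0.99 ± 0.17). Unc45b, the chaperone of muscle myosin, was at 166 ± 34.8 in F/F and 261 ± 61.3 in +/+ hearts (-0.82 ± 0.15). The edgeR adjusted p of these 3 genes ran from 0.000108 to 0.000345. In QuantSeq with cGas 1 of 14 was called lower, Unc45b (-0.62 ± 0.15, edgeR adjusted p = 0.0204), with a median of -0.38, and without cGas 0 of 14, with 1 of 14 at an unadjusted p under 0.05 by edgeR. At 1 week 0 of 14 were called, with 2 of 14 at an unadjusted p under 0.05 by edgeR. Of all genes tested, 1528 of 14812 without cGas and 1539 of 15627 at 1 week had such a p. Of 11 other myosin heavy chains 4 were tested, and Myh14, a nonmuscle myosin, was lower at 29.0 ± 3.16 in F/F against 50.3 ± 7.30 in +/+ hearts (-0.83 ± 0.19, edgeR adjusted p = 0.00170).

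Of 20 transcription factors and cofactors that act on myosin genes 5 were lower and 1 higher at 2 weeks, near the 29.2% of all genes called in either direction, with a median of -0.20, against 0.04 over all genes. Thra, the main thyroid hormone receptor of the heart and an activator of Myh6, was at 37.7 ± 1.59 in F/F and 53.4 ± 5.71 in +/+ hearts (-0.61 ± 0.12, edgeR adjusted p = 0.000554). Gata4 was at 39.0 ± 4.54 in F/F and 54.3 ± 8.24 in +/+ hearts (-0.49 ± 0.14) and Nkx2-5 at 29.6 ± 3.52 in F/F and 40.2 ± 6.10 in +/+ hearts (-0.52 ± 0.18), both cardiac transcription factors. Purb, a single-strand binding repressor of muscle genes, was higher, at 37.1 ± 19.5 in F/F and 29.3 ± 8.67 in +/+ hearts (0.60 ± 0.19, edgeR adjusted p = 0.0181). None of the 20 was called in the QuantSeq comparisons with or without cGas, with 2 and 0 at an unadjusted p under 0.05 by edgeR. Of the 14812 genes tested, 2795 with cGas and 1528 without it had such a p.

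Of 5 genes that often rise together with Myh7 under load, 3 were higher at 2 weeks (16.2% of all genes were called higher), with a median of 1.10, while Myh7 was not called. Ankrd1, a stress-responsive protein of the sarcomere, was at 4603 ± 1618 normalised CPM in F/F and 1400 ± 504 in +/+ hearts (1.62 ± 0.30, edgeR adjusted p = 0.000345). Nppa and Nppb, which encode natriuretic peptides, were higher too. Nppa was at 1851 ± 967 in F/F and 496 ± 181 in +/+ hearts (1.64 ± 0.49, edgeR adjusted p = 0.0126), and Nppb at 1064 ± 552 in F/F and 376 ± 268 in +/+ hearts (1.10 ± 0.40, edgeR adjusted p = 0.0395). In QuantSeq with cGas Ankrd1 was called (1.505 ± 0.27, edgeR adjusted p = 0.00273), Nppa (1.13 ± 0.69) and Nppb (0.74 ± 0.38) were not. Mhrt, a long noncoding RNA of the Myh7 locus on the opposite strand, was at 18.1 ± 9.20 in F/F and 27.1 ± 5.79 in +/+ hearts of 2 weeks (-0.57 ± 0.22, edgeR adjusted p = 0.0553), and was called lower in QuantSeq with cGas (-0.69 ± 0.19, edgeR adjusted p = 0.0327). The strand setting of the counting is not given, so reads of Mhrt and Myh7 may not be fully separated. The 3 microRNA genes within Myh6, Myh7 and Myh7b introns had at most 30 reads over all 26 NEBNext libraries and were not tested.

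Esr1 was set beside 15 steroid receptors and coregulators, of which 13 were tested at 2 weeks and 3 were lower, where 13.0% of all genes were called lower and 29.2% in either direction, so the count is near that of all genes. Their median was -0.11, against 0.04 over all genes. These were the orphan receptors Esrrb (8.39 ± 2.69 in F/F and 18.3 ± 2.49 in +/+ hearts, -1.07 ± 0.20) and Esrra (70.3 ± 7.33 in F/F and 113 ± 10.5 in +/+ hearts, -0.79 ± 0.17) and the mineralocorticoid receptor Nr3c2 (5.32 ± 2.58 in F/F and 9.22 ± 2.72 in +/+ hearts, -0.81 ± 0.28), with edgeR adjusted p of 0.000338, 0.00104 and 0.0310. In QuantSeq with cGas 0 of 12 were called, with 2 of 12 at an unadjusted p under 0.05 by edgeR, as were 2795 of all 14812 genes tested.

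Markers of cell types moved with these results at 2 weeks, where 13.0% of all genes were called lower and 16.2% higher. Of 8 cardiomyocyte markers 7 were lower, with a median of -0.60 and a summed level of 33597 to 51627 normalised CPM in F/F and 61591 to 80981 in +/+ hearts. Among them, Tnni3 was at 5549 ± 1868 in F/F and 11338 ± 1467 in +/+ hearts (-0.94 ± 0.15) and Ckm at 2928 ± 511 in F/F and 5499 ± 1018 in +/+ hearts (-1.03 ± 0.16). All 8 macrophage markers were higher, with a median of 1.78 and summed levels of 391.6 to 1669 in F/F and 272 to 377 in +/+ hearts. Cd68 was at 81.2 ± 42.4 in F/F and 13.8 ± 2.18 in +/+ hearts (2.32 ± 0.31) and Adgre1 at 54.9 ± 27.6 in F/F and 13.7 ± 1.95 in +/+ hearts (1.77 ± 0.22). Of 8 fibroblast markers 6 were higher and 1 lower, with summed levels of 3196 to 6543 in F/F and 2452 to 4374 in +/+ hearts, and Col3a1 was at 1678 ± 993 in F/F and 302 ± 97.8 in +/+ hearts (2.11 ± 0.36). Of 8 endothelial markers 3 were lower, with Kdr at 43.2 ± 12.8 in F/F and 69.9 ± 12.7 in +/+ hearts (-0.65 ± 0.21), and of 5 skeletal muscle markers tested none was called (summed levels 5.07 to 8.17 in F/F and 4.46 to 8.60 in +/+ hearts, with Myh4 at 0 in the F/F hearts). Of 7 atrial markers Nppa alone was called, and their sum ranged over 437 to 3257 CPM among F/F hearts, against 341 to 1322 CPM among +/+ hearts. In QuantSeq with cGas, where 3.74% of all genes were called higher and 0.891% lower, 7 of 8 macrophage markers were called higher. None of the 8 cardiomyocyte markers was called there. An unadjusted p under 0.05 by edgeR was found for 3 of these 8, and for 2795 of all 14812 genes tested. The cardiomyocyte markers summed to 15100 to 25084 in F/F and 20555 to 33631 in F/+ hearts. The part of cell composition in the levels of the 4 genes was not tested. With the score of the atrial markers other than Nppa in the fit, a term added after seeing the data, the log2 fold changes at 2 weeks were -0.86 for Myh6, -1.36 for Myh7b and -1.73 for Esr1, all still called by edgeR, and that of Esr1 in QuantSeq with cGas was -0.92 (edgeR adjusted p = 0.0348).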

How the data were processed

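Messenger RNA of 46 adult mouse hearts was sequenced, 26 with the NEBNext directional kit (poly(A) selection, single-end 50 cycles) and 20 with QuantSeq 3' FWD (single-end 100 cycles), per the labels. The submitters' processing notes name STAR 2.7.9 and the build mm39. No source at hand states the counting tool, annotation, strand setting or whether the reference held the transgene. The authors deposited raw counts of 55359 genes and a table of TPM, whose QuantSeq columns are CPM (all 20 equalled CPM recomputed from the counts within 0.01). Columns were matched to samples by title, with 0 columns of no sample. Replicate numbers only name samples. Each title carries its own heart number, so each library was taken as 1 heart. None of 93 replicate pairs was identical (lowest chi-square per degree of freedom 8.92).

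Counts were tested with edgeR 4.0.16 in R 4.3.3 (TMM, filterByExpr with a minimum count of 10 and total of 15, quasi-likelihood test, Benjamini-Hochberg over all genes, threshold 0.05), 1 fit per kit, with sex and, at 2 weeks, the pool as covariates. Ratios (log2, deposited TPM in NEBNext, tag counts in QuantSeq) were compared with exact permutation tests, adjusted over 21. Correlations used log2(normalised CPM + 0.5). On counts simulated for the 2-week comparison over 15166 genes, 80.8% of 99 changes of 2 and 59.6% of 94 changes of 1 (log2) were recovered, with 8 false calls. For QuantSeq with cGas (14562 genes) it was 96.9% of 98 and 70.1% of 97, with 5 false calls. The simulation held few changed genes and no sex or pool effect, unlike the real data, so these shares may not hold for the real fits. Alternatives were DESeq2 1.42.0, limma 3.58.1 on TPM, filters, scalings, covariates, single pools and leaving out libraries. The genes, lists and tests were chosen with earlier results of these data known. Of each list at most 4 genes are named: those called at 2 weeks with the smallest adjusted p, or, where none is called, 2 with the highest mean level. 1 gene that this rule names is not reported here. Promoters were read from RefSeq (GRCm38.p6), and chromosomes from GENCODE vM21 by gene identifier.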

Additional observations from a re-analysis of the deposited data

Results flagged for a closer look

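Values were examined in 56 sets of 4 to 10 hearts, in which chance makes about 1 in 20 sets hold a far value, and 5 sets did. Myh6 was 6196 normalised CPM in replicate 1 of the +/+ hearts of 1 week, the lowest of 5 and far below the others. Esr1 was 134 normalised CPM in replicate 3 of the F/F hearts of 2 weeks, a male heart of pool KIUC035. In the same heart the log2 ratio of Myh7b to Myh6 was -10.43, the lowest of 5. Among the cGas null F/+ hearts, the log2 ratio of Myh7 to Myh6 was -3.26 in replicate 1 and that of Myh7b to Myh6 was -9.77 in replicate 3, each the highest of 4.

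The Lmna F/F effect of 2 weeks differed from that of 1 week, by the test of the difference itself, for Myh7b (-1.76 on the log2 scale), Esr1 (-1.66) and Myh6 (-1.10). For Esr1 this call did not hold in 12 of 21 fits that left out a library.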

How the results depend on the processing

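No paired analysis was possible because the labels give no replicate numbers, and those used here follow sample order. Over all results and alternatives, 1061 values kept their side of the threshold (or stayed within 1.5 times for a count), 46 counts moved by more than that, 22 results lost their call, 16 gained one, and 0 called values changed sign. In the counts of called genes, DESeq2 gave 20 at 1 week, 30 at 11 days, 1054 with cGas, 251 without cGas, and 5 and 1 for cGas null in F/F and F/+ hearts. With no filter on low counts they were 109, 201, 1183, 515, 93 and 93, and 23 for the difference between the effects without and with cGas. Fitting only the libraries compared gave 2 at 1 week, 1 at 11 days, 246 without cGas and 2 for cGas null in F/F hearts. Without cGas the count was 139 without TMM factors, 21 without sex and 174 with the atrial score added after seeing the data, which gave 1 at 11 days. Pool KIUC033 alone gave 370 at 2 weeks, and there Myh6 (-0.45), Myh7b (-0.69) and Esr1 (-1.09) lost their call. With no filter, Myh7 was called at 1 week (-0.89), 11 days (1.25), 2 weeks (0.47), for the difference of times (1.36) and with cGas (-0.63), and Esr1 at 11 days (-0.91) and without cGas (-0.71). The difference of times for Esr1 was not called on the libraries compared alone (-1.66) or on TPM with limma (-1.80). With cGas, Myh6 (-0.59) and Myh7 (-0.64) were called with DESeq2, Myh7 also without sex (-0.64) and on the libraries compared (-0.64), and Esr1 was not called without TMM factors (-0.82). The cause of these changes was not tested.

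Leaving out 1 library at a time, the counts of called genes ran from 3 to 9 at 1 week, 0 to 235 at 11 days, 3046 to 5261 at 2 weeks, 1130 to 2966 for the difference of times, 190 to 1169 with cGas and 7 to 175 without it. With cGas, Esr1 ran from -1.14 to -0.84 and lost its call without F/+ replicate 1 or 3 or F/F replicate 1 or 2. Myh6 ran from -0.71 to -0.50, called without F/+ replicate 4 or F/F replicate 4, and Myh7 from -0.71 to -0.55, called without these or F/+ replicate 6. The difference of times for Esr1 ran from -1.95 to -1.34. Groups of 2 to 7 hearts, 1 pool per early time and reads shared by Myh6 and Myh7 limit precision, and 13 to 61 Myh7b tags per QuantSeq library leave it with large counting error.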
